A study of Mus musculus with 12 samples.

Results

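The orosomucoid genes, Orm1, Orm2 and Orm3, encode the alpha-1-acid glycoproteins, small and heavily glycosylated plasma proteins of the lipocalin family that hepatocytes secrete. They are classic positive acute phase genes of the liver. Interleukin-1, interleukin-6 and glucocorticoids raise their transcription, through C/EBP factors, STAT3 and the glucocorticoid receptor, and the secreted proteins bind basic drugs and steroids in plasma. The members were taken as the rows of the deposited count table that carry 1 of these 3 symbols, which found 3 genes of 25611.

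RNA of whole livers from 12 young adult male C57BL6J mice was sequenced 30 hr post-surgery, with 1 library per mouse. Sham mice (n = 4) had the abdomen opened without injury to the cecum, CLP mice (n = 4) had undergone cecal ligation and puncture, a model of polymicrobial sepsis, and CLP+DCA mice (n = 4) were septic mice that received dichloroacetate (DCA), an inhibitor of the pyruvate dehydrogenase kinases, 24 hr after surgery and 6 hr before tissue collection. Per the labels the sham and CLP mice were also injected at that time, and the labels do not give with what. A sham group with DCA was not analysed here, so the CLP+DCA group differs from CLP by the drug and from sham by both surgery and drug. Between 24436513 and 44266819 reads per library were counted on genes. The library CLP+DCA 3 stood apart from its group: on the first principal component of log2 expression (59.2% of the variance) it lay at 82.6, beyond the 4 CLP libraries (8.66 to 72.8), whereas the other 3 CLP+DCA libraries lay between -28.9 and -16.4 and sham between -40.6 and -33.1. The members' fold changes, ratios and spread in the CLP+DCA group are therefore also given without it.

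The 3 genes lie side by side on the plus strand of mouse chromosome 4, in the order Orm1, Orm3, Orm2. In the mm10 coordinates of the deposited table, Orm1 (NCBI Gene 18405) spans chr4:63344556-63348163, Orm3 (NCBI Gene 18407) chr4:63356162-63359511 and Orm2 (NCBI Gene 18406) chr4:63362449-63365877. In GENCODE M21, an annotation of the same build, the transcript used for each has 6 exons and is 775 bases long for Orm1 and Orm2 and 773 for Orm3, and no other annotated gene overlaps them. Because the reads were 100 bases long and the genes are near copies, how well reads can tell them apart bears on every value below. Transcript identity was 91.0% between Orm1 and Orm2, 88.0% between Orm2 and Orm3 and 86.1% between Orm1 and Orm3. Of the 676 stretches of 100 bases in the Orm1 transcript, 47 (6.95%) also occur in Orm2, and none of the 674 in Orm3 occurs in another annotated transcript. The first 60 coding bases, all within exon 1, show how the copies differ. Capitals mark the 12 positions at which the 3 are not identical.
Orm1, chr4:63344598-63344657: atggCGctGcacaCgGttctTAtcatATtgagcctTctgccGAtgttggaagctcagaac
Orm2, chr4:63362487-63362546: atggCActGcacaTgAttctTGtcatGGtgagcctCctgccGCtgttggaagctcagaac
Orm3, chr4:63356200-63356259: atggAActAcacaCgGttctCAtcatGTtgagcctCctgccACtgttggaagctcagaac
Each copy carries 4 bases in this stretch that neither of the others has. How the counting treated reads that match several places is not stated, so the division of the shared 6.95% between Orm1 and Orm2 is uncertain.

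The 250 bases before the start sites of Orm2 and Orm3, which lie next to each other, are set side by side. Binding of the factors named above was not measured here. Whether differences between the 2 windows bear on expression was not tested. RefSeq windows (GRCm38.p6) were matched for 2 of the 3 members, Orm2 and Orm3. Capitals mark matches on either strand to AGAACA, a half-site of the glucocorticoid receptor, to TTNNGNAA, a core of C/EBP sites, and to the TATA box TATAAA.
Orm2, chr4:63362199-63362448, plus strand: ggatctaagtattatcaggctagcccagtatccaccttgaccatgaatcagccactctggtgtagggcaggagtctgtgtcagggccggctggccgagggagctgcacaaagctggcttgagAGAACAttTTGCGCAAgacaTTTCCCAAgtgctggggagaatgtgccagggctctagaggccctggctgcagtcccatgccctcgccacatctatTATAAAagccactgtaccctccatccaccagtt
Orm3, chr4:63355908-63356157, plus strand: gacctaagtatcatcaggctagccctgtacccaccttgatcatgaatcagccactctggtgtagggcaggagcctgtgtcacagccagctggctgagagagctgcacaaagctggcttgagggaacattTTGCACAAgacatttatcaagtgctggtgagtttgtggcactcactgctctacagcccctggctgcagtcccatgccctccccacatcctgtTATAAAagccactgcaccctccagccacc
The aligned windows were identical in 218 of 255 columns (85.5%), with 27 substitutions. The Orm2 window holds AGAACA starting 128 bases before the start site and, starting 120 bases before it, TTGCGCAA, the C/EBP palindrome, which is itself a match to TTNNGNAA. A second match to that core, which reads TTTCCCAA on the plus strand and matches on the minus strand, starts 108 bases before the start site. In the Orm3 window neither AGAACA nor TTGCGCAA was found, and 1 core match, TTGCACAA, was. Counted from 1 at the 5′ end of the Orm2 window, with the base of Orm2 first and that of Orm3 last, the substitutions in these matches are A123G in the half-site, G135A in the palindrome, and C146A and C147T in the second core. Both windows hold TATAAA, and neither holds the STAT palindrome TTCNNNGAA. Over 32851 windows of the same length, AGAACA occurs in 16.1%, TTGCGCAA in 0.164%, TTNNGNAA in 36.8%, TTCNNNGAA in 7.02% and TATAAA in 12.4%. These motifs were chosen with the sequences in view, and a match describes letters, not a bound site.

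In the septic liver, 2 of the 3 orosomucoid genes rose. Orm1, the most abundant member, was about 4-fold and Orm2 about 5-fold higher in CLP than in sham, and all 4 CLP mice lay above all 4 sham mice for both. Orm3, which had few reads, had overlapping groups. In whole liver, fewer cells of a type and less RNA per cell cannot be told apart. Expression is given in CPM, the reads of a gene scaled to a common library size after TMM correction for library composition, and a gene passed the test at a false discovery rate (FDR) of 0.05 in edgeR's quasi-likelihood test over 13190 genes.

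Orm1 had 3018, 2703, 2799 and 2409 CPM in sham replicates 1 to 4, and 8920 (replicate 1), 15007 (replicate 2), 6966 (replicate 3) and 13578 (replicate 4) CPM in CLP. The lowest CLP mouse was thus well above the highest sham mouse, and replicates 2 and 4 were the highest. Mean expression rose from 2732 ± 253 to 11118 ± 3797 CPM (SD, n = 4 each). On the log2 scale the change was 2.02 (SE 0.34, 95% interval 1.27 to 2.78, edgeR adjusted p = 0.0254).

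Orm2 had 455, 421, 394 and 382 CPM in sham and 2081, 2438, 1134 and 2821 CPM in CLP, in the same order of replicates. As for Orm1, CLP replicate 3 was the nearest to sham. Its mean of 413 ± 32.5 CPM in sham became 2119 ± 722 CPM after CLP (SD, n = 4 each). On the log2 scale the change was 2.36 (SE 0.35, 95% interval 1.60 to 3.12, edgeR adjusted p = 0.0196). In this comparison 2.78% of genes were called in either direction and 1.64% as higher (216 higher and 151 lower, against 100 and 109 when libraries were scaled by total counts alone), and by the smallness of their p Orm2 held rank 14 and Orm1 rank 39 of the 13190. The groups did not overlap, with CLP higher, for 12.2% of all genes, and 28.6% had an unadjusted p under 0.05.

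Orm3 had 20.6, 12.3, 19.7 and 4.76 CPM in sham and 18.8, 17.5, 14.3 and 21.7 CPM in CLP. These values rest on 174 to 816 reads per library, and the lowest of them, sham replicate 4, set most of the spread in sham. The means were 14.3 ± 7.39 and 18.1 ± 3.06 CPM (SD, n = 4 each). The log2 fold change was 0.34 (SE 0.45, edgeR adjusted p = 0.63), and its 95% interval, -0.65 to 1.32, spans from 0.639-fold to 2.49-fold on the linear scale.

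**Figure D1:**
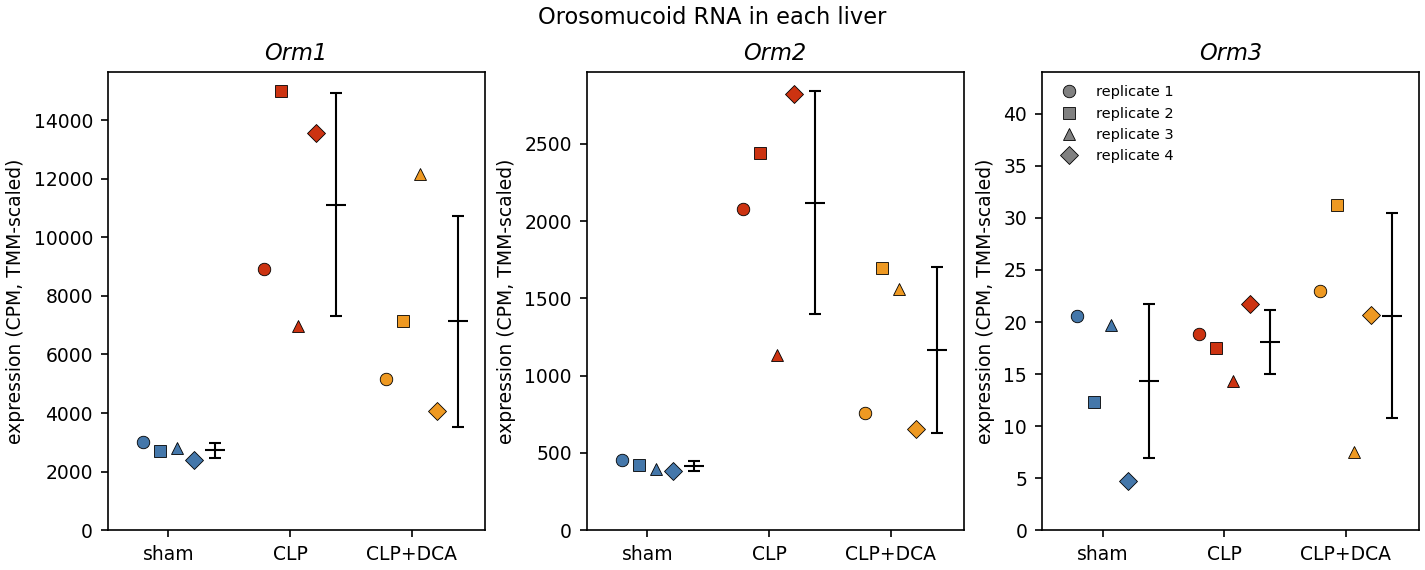
Expression of Orm1, Orm2 and Orm3 in each liver, in TMM-scaled CPM on linear axes that start at 0. Points are single mice, marked by replicate number, and the bars beside them give the mean ± SD of each group (n = 4). Orm1 and Orm2 in CLP and CLP+DCA lie above all sham mice, while the groups overlap for Orm3.

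The calls for Orm1 and Orm2 held in 7 of 8 alternative fits by edgeR or DESeq2, but depended on which mouse was left out. With single libraries left out, the log2 fold change stayed between 1.85 and 2.19 for Orm1 and between 2.19 and 2.57 for Orm2, but both lost the call without any 1 of the 4 sham libraries and without CLP replicate 2 or CLP replicate 4 (edgeR adjusted p up to 0.0845 for Orm1 and 0.0784 for Orm2). Over all fits with 1 library left out, the unadjusted edgeR p was at most 0.000474 for Orm1 and 0.000153 for Orm2. Leaving out CLP+DCA 3, which enters this comparison through the shared estimate of the spread, the adjusted p fell to 0.00113 for Orm1 and 0.00224 for Orm2, and 3157 genes were called.

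Cell type markers moved with these groups. The summed expression of 6 hepatocyte markers, all read in every library, was 56510 to 77609 CPM in sham and 25421 to 38508 CPM in CLP. This direction was opposite to that of Orm1 and Orm2. Most of the sum came from 1 gene, Alb, with means of 46672 CPM in sham and 21571 CPM in CLP. Whether the hepatocyte content changed was not tested. Of the 6, all were lower in CLP and 1, Alb, passed the test (log2 fold change -1.11, edgeR adjusted p = 0.0463). The sum of 13 neutrophil markers was 6.96 to 10.04 CPM in sham and 34.4 to 48.7 CPM in CLP, with Ngp, Camp, Ltf and Mpo at 0 reads in some libraries. Of the 11 tested, 10 were higher in CLP and 2 passed the test (Retnlg, 3.10, and Mmp9, 2.38 on the log2 scale). The 1 lower marker was Ly6g, at -0.78 (edgeR adjusted p = 0.136). In the fit without CLP+DCA 3, which called 3157 genes, 4 hepatocyte markers passed as lower and 9 neutrophil markers as higher. Without any 1 sham library, or without CLP replicate 1, 2 or 4, neither list had a call. Hepatocyte markers also had none without CLP+DCA replicate 1 or 2. Neutrophil markers had 1 call without CLP+DCA replicate 2 and 5 without CLP+DCA replicate 4. Between 10 and 3157 of all genes were called in CLP versus sham with single libraries left out. The part of these markers in the change of the orosomucoid genes was not tested.

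The levels of the members were far apart. Per kilobase of transcript, the mean level in sham was 3525 ± 326 CPM for Orm1, 533 ± 42.0 for Orm2 and 18.6 ± 9.56 for Orm3, and in CLP 14346 ± 4899, 2734 ± 932 and 23.4 ± 3.95 (SD, n = 4 each). The order Orm1 > Orm2 > Orm3 held in all 12 libraries. Together the 3 genes took between 0.288 and 0.369% of all counted reads in sham, between 0.846 and 1.49% in CLP and between 0.489 and 1.26% in CLP+DCA. Summing the members, which does not depend on how the counted reads were divided among them, gave 3159 ± 287 CPM (SD, n = 4) in sham. Any shared reads left uncounted would be missing from the sum too. The sum in CLP, 13255 ± 4440 CPM (SD, n = 4), was 4.20-fold higher, without overlap.

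Spread between mice differed with the group. In sham, the coefficient of variation was 9.25% for Orm1 and 7.88% for Orm2, against 34.1% for both in CLP and 50.4% (Orm1) and 46.0% (Orm2) in CLP+DCA. Without CLP+DCA 3, the value in CLP+DCA was 28.5% for Orm1 and 55.3% for Orm2. Orm3 varied most in sham (51.5%) and least in CLP (16.9%), with 47.8% in CLP+DCA, or 22.2% without CLP+DCA 3.

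To ask whether the members changed by unequal amounts, their reads were compared within each library, since such a ratio does not depend on library size. The 9 ratios were tested with two-sided exact permutation tests (1 read added to each count), for which 4 against 4 mice allow no p below 0.0286, and adjusted over the 9. Orm1 had 6.63, 6.42, 7.11 and 6.31 reads per Orm2 read in sham and 4.29, 6.15, 6.14 and 4.81 in CLP. Every CLP mouse thus had a lower ratio than every sham mouse, with replicates 1 and 4 lowest. The difference of the mean log2 ratio was -0.32 (exact permutation p = 0.0286, adjusted p = 0.257), which does not pass the correction.

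For each read of Orm3 there were 22.1, 34.2, 19.99 and 80.2 reads of Orm2 in sham and 111, 139, 79.2 and 130 in CLP. Here 1 sham mouse, replicate 4, fell within the range of CLP. The log2 ratio of Orm3 to Orm2 was 1.76 lower in CLP (exact permutation p = 0.0571, adjusted p = 0.257), and that of Orm1 to Orm3 was 1.44 higher (p = 0.0857, adjusted p = 0.257, exact permutation). Orm1 and Orm2 passed the test against sham and Orm3 did not, but the difference between their changes did not pass a test of its own. At this group size, at least 6 of the 9 tests would have to reach the smallest p for any to pass the correction. Of the other 6 ratios, which involve CLP+DCA, none had an exact permutation p below 0.229. Without CLP+DCA 3, the log2 ratio of Orm3 to Orm2 was 1.55 higher in CLP+DCA than in CLP (0.94 with it), and that of Orm1 to Orm3 was lower, at -1.46 (-0.73 with it). Both then had the smallest p that 3 against 4 mice allow (exact permutation p = 0.0286, adjusted p = 0.0857 over the 6). The other 4 ratios had exact permutation p of 0.229 or more without that library, and that of Orm1 to Orm3 versus sham went from 0.71 to -0.02.

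**Figure D2:**
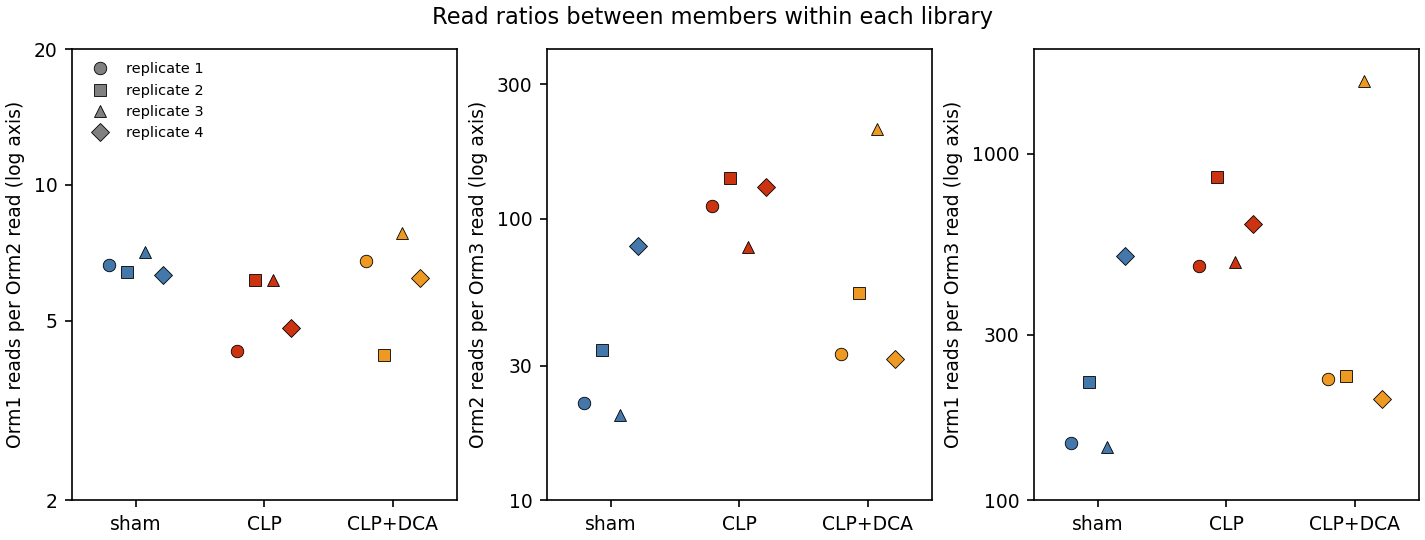
Reads of one member per read of another within each library, on log axes, by group and replicate number. The Orm1 to Orm2 ratio lay between 6.31 and 7.11 in sham and between 4.29 and 6.15 in CLP, and CLP+DCA replicate 3 had the highest Orm1 to Orm3 ratio of all libraries, 1623.

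After DCA, Orm1 and Orm2 lay between the levels of sham and CLP. Each CLP+DCA mouse remained above each sham mouse for both genes, and 2 of the 4 lay below all CLP mice. Neither the difference from sham nor that from CLP passed the FDR in the edgeR fit.

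Orm1 had 5148, 7127, 12174 and 4067 CPM in CLP+DCA replicates 1 to 4, so that replicates 2 and 3 were within the range of CLP. The mean of 7129 ± 3594 CPM (SD, n = 4) was 2.61-fold that of sham (log2 fold change 1.38, 95% interval 0.65 to 2.12, edgeR adjusted p = 0.225) and 0.641 of that of CLP (log2 fold change -0.64, 95% interval -1.37 to 0.09, edgeR adjusted p = 0.547). Orm2 had 758, 1696, 1560 and 655 CPM, so that replicates 2 and 3 were within the range of CLP. Its mean was 1167 ± 536 CPM (SD, n = 4), with a log2 fold change of 1.499 versus sham (95% interval 0.76 to 2.24, edgeR adjusted p = 0.220) and of -0.86 versus CLP (95% interval -1.59 to -0.13, edgeR adjusted p = 0.437). The unadjusted p of the latter edgeR test was 0.0247.

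Against sham, edgeR called 0.0379% of genes in CLP+DCA, 5 in number (0.0303% as higher), 13% had an unadjusted p under 0.05, and the groups did not overlap, with CLP+DCA higher, for 4.78% of genes. DESeq2, the tool the authors used, put both genes past the FDR in this comparison (adjusted p = 0.00494 for Orm1 and 0.00186 for Orm2 on all 12 libraries). That fit called 243 genes in this comparison. Against CLP, edgeR called 0.00758% of genes, a single one, 10% had an unadjusted p under 0.05, the groups did not overlap with CLP+DCA lower for 2.05%, and neither DESeq2 fit called an orosomucoid gene. Both comparisons share their libraries with CLP versus sham, so the 3 sets of values are not independent.

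With CLP+DCA 3 left out, the mean of the remaining 3 mice was 5447 ± 1552 CPM for Orm1 and 1036 ± 574 CPM for Orm2 (SD, n = 3). These are 1.99-fold and 2.51-fold the sham means. Versus CLP, the log2 fold change was then -1.03 for Orm1 (edgeR adjusted p = 0.0515) and -1.03 for Orm2 (adjusted p = 0.0927), and 616 genes were called. Versus sham it was 0.995 for Orm1 and 1.33 for Orm2 (edgeR adjusted p = 0.260 for both). In CLP+DCA 3 the hepatocyte marker sum was 22937 CPM, the lowest of all libraries, and the neutrophil marker sum 63.5 CPM, the highest of all libraries. The part of these differences in the result was not tested.

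Orm3 had 23.0, 31.3, 7.50 and 20.7 CPM in CLP+DCA. The lowest value came from CLP+DCA 3, and 3 of the 4 mice were above all sham mice. That library had the most Orm1 reads of all, but not the highest Orm1 CPM, which was 15007 in CLP replicate 2. The mean was 20.6 ± 9.85 CPM (SD, n = 4), with a log2 fold change of 0.52 versus sham (95% interval -0.46 to 1.505, edgeR adjusted p = 0.607) and of 0.19 versus CLP (95% interval -0.79 to 1.17, edgeR adjusted p = 0.910). Without that library the log2 fold change of Orm3 was 0.81 versus sham (edgeR adjusted p = 0.574) and 0.47 versus CLP (adjusted p = 0.453), and without CLP+DCA replicate 2 it was -0.10 versus CLP. In CLP+DCA 3, Orm3 had 0.0616% as many reads as Orm1, the lowest share of any library, against 0.439 to 0.509% in the rest of that group.

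**Figure D3:**
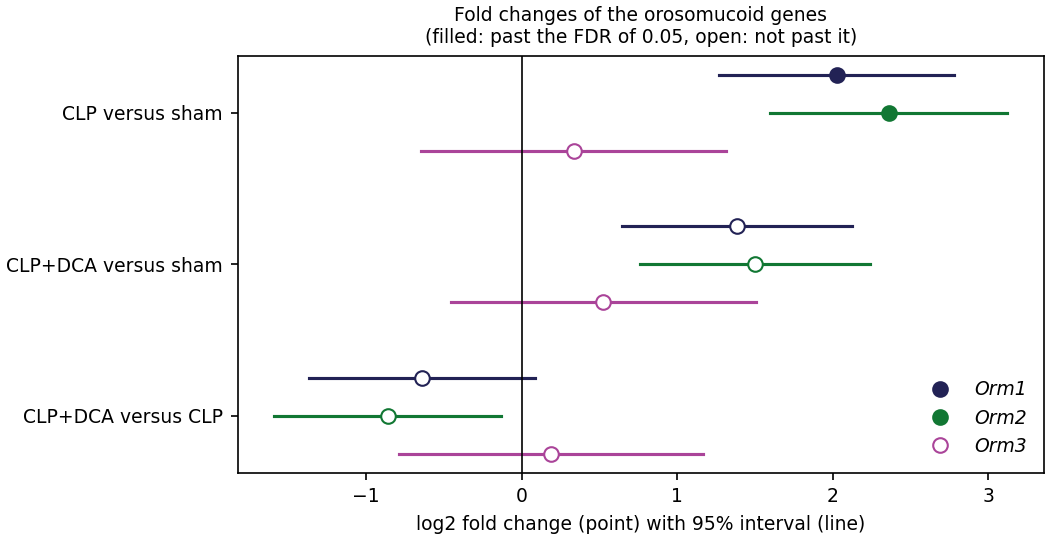
Log2 fold changes of the 3 genes in the 3 comparisons, with 95% intervals from the edgeR fit of all 12 libraries. Filled points passed the FDR of 0.05, which were Orm1 (2.02) and Orm2 (2.36) in CLP versus sham, and all Orm3 intervals include 0.

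The neighbourhood of the cluster was examined next, as all genes of the table that reach within 200 kb of it. Besides the members there were 8, of which 7 passed the low-count filter, Mir455 having no read. None passed the test in any of the 3 comparisons. The largest log2 fold change among them in CLP versus sham was that of Tmem268 (1.44, edgeR adjusted p = 0.133), with means of 10.4 CPM (sham) and 28.2 CPM (CLP). Col27a1, a collagen gene and the nearest upstream neighbour at 9568 bases from Orm1, was at 0.84 (adjusted p = 0.149). Akna, an AT-hook protein gene that lies 1246 bases beyond the end of Orm2, on the opposite strand, was at 0.35 (adjusted p = 0.375). Ambp, another lipocalin gene, which encodes alpha-1-microglobulin and bikunin, was abundant (3390 CPM in sham) and was at 0.46 (adjusted p = 0.0815).

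**Figure D4:**
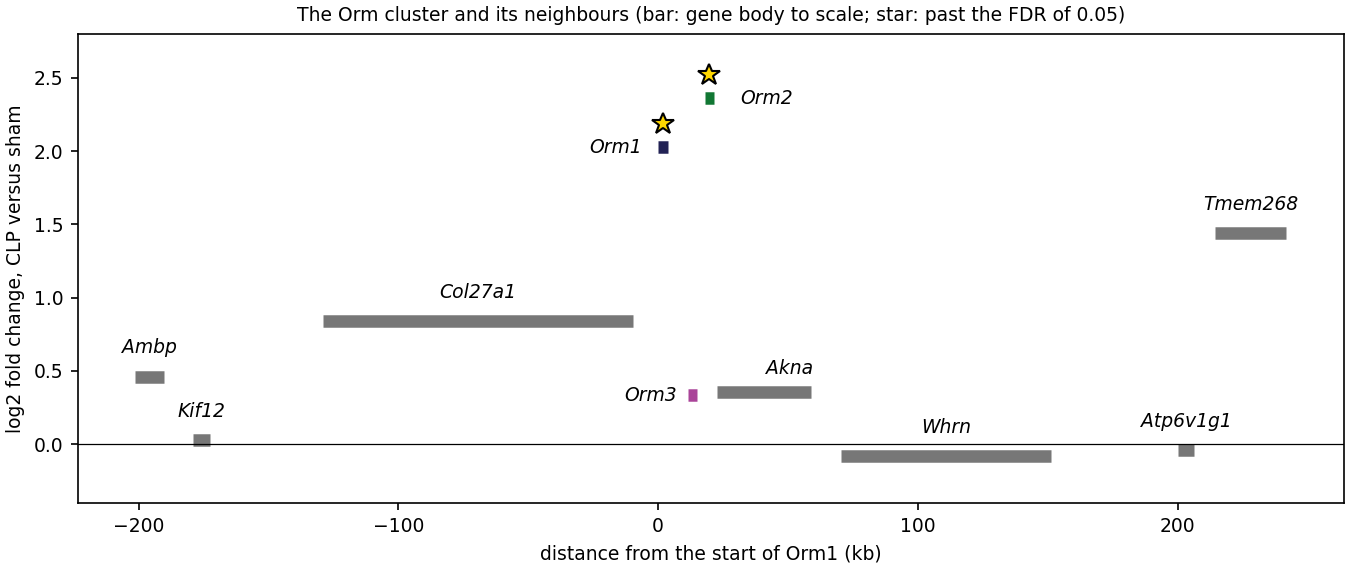
The orosomucoid cluster and its neighbours, with gene bodies to scale by distance from the start of Orm1 (kb) and the log2 fold change of CLP versus sham on the vertical axis. Stars above a bar mark genes past the FDR of 0.05, which are Orm1 and Orm2, and Orm3, which lies between them, is at 0.34.

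Over the 12 libraries, the genes whose log2 CPM followed that of Orm1 most closely were Apcs (Pearson r = 0.989), Hp (0.988), Lcn2 (0.986), Hpx (0.981) and Serpina3n (0.977). Apcs encodes serum amyloid P, Hp haptoglobin, Hpx hemopexin, Lcn2 the siderophore-binding lipocalin-2 and Serpina3n a protease inhibitor, and all 5 stand in the acute phase lists described below. For Orm2 they were Lbp, the lipopolysaccharide binding protein (0.974), Jrk (0.974), Hp (0.966), Apcs (0.964) and Tmem176b (0.961), so that 2 genes are named for both. For Orm3 they were Rad9a (0.910), Erc2 (0.908), Baiap2 (0.897), Sumf2 (0.879) and Tnfaip8l1 (0.863), none of which is in those lists. Orm1 and Orm2 followed each other at r = 0.970, while Orm3 had r = 0.204 with Orm1 and r = 0.300 with Orm2. These values describe 12 libraries in 3 groups that share the group differences, and carry no test.

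Other acute phase genes were set beside the members in 2 lists. Of 10 genes of class 1, which respond to interleukin-1 together with interleukin-6, as the orosomucoid genes do, all were higher in CLP than in sham and 8 passed the test, with a median log2 fold change of 1.67 against 0.02 over all genes. Saa3, a serum amyloid A, rose by 8.75, Lcn2 by 4.09, Apcs by 2.59, Saa1 by 1.70, Hpx by 1.65 and Hp by 1.36. Orm2, at 2.36, and Orm1, at 2.02, fall among them. Of 10 genes of class 2, which respond to interleukin-6, all were higher and 4 passed the test (median 1.53). The 4 that passed were A2m (alpha-2-macroglobulin, 12.002, from 0.294 CPM in sham), Serpina3n (2.09), Serpina3m (1.69) and Itih3 (1.03). These counts turned on single mice. Without CLP+DCA 3, where 3157 genes were called, 9 genes of class 1 and 10 of class 2 passed. Without any 1 sham library, or without CLP replicate 2 or CLP replicate 4, class 1 had 1 and class 2 had 0. Without CLP replicate 1, they had 3 and 0, without CLP replicate 3, 9 and 9, without CLP+DCA replicate 1 or 2, 3 and 1, and without CLP+DCA replicate 4, 8 and 5. Over the fits with 1 library left out, between 10 and 3157 genes were called in all in CLP versus sham. Whether the counts of these lists and those below exceed that share of all genes was not tested.

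Comparing CLP+DCA with CLP, 9 of the 10 genes of class 1 and all 10 of class 2 were lower. The medians were -0.60 and -0.38 against 0.01 over all genes, but none passed the edgeR test, like the members. An unadjusted p under 0.05 was held by 2 genes of class 1 and 0 of class 2, against 10% of all genes. A count by DESeq2 was not made for the lists. Without CLP+DCA 3, where 616 genes were called, 4 genes of class 1 and 5 of class 2 passed as lower, and the medians were -1.05 and -0.99. Comparing CLP+DCA with sham, 1 gene of class 1, Saa3 (7.53, edgeR adjusted p = 0.00428), and none of class 2 passed. All 10 of class 2 had an unadjusted p under 0.05 there, against 13% of all genes.

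The receptors and signal transducers that act on orosomucoid genes were a list of 14, of which 10 were higher and 4 lower in CLP. None passed the test by edgeR, while 8 had an unadjusted p under 0.05. Over all genes, 28.6% had such a p and 51.9% were higher. The smallest p belonged to Lifr, the receptor of leukemia inhibitory factor, at -1.69 (edgeR adjusted p = 0.0508), and Il1r1, the interleukin-1 receptor, at 1.75 (adjusted p = 0.0510). The fit without CLP+DCA 3, with 3157 genes called, put 4 of the list past the test as higher and 2 as lower. The fits without CLP replicate 3 or CLP+DCA replicate 4 put 2 as higher and 1 as lower. Among 6 transcription factors of orosomucoid promoters, Cebpd, which encodes C/EBP delta, rose by 2.17 on the log2 scale, its mean being 4.70 ± 1.81 CPM in sham against 21.3 ± 9.28 CPM after CLP (SD, n = 4 each, edgeR adjusted p = 0.0283). It was the single call of this list, and was lost without any 1 sham library, CLP replicate 2 or CLP replicate 4. Cebpa, which encodes C/EBP alpha, was at -0.51 (adjusted p = 0.0938), and the median of the list was -0.03.

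Of 10 glucocorticoid-inducible genes, 2 passed as higher and 1 as lower in CLP versus sham, with 5 above and 5 below 0. Fkbp5, a chaperone of the glucocorticoid receptor, rose by 2.04 (edgeR adjusted p = 0.00698) and Zbtb16 by 1.69 (adjusted p = 0.0417), whereas Dusp1, a phosphatase of MAP kinases, fell by 1.19 (adjusted p = 0.0390). With single libraries left out, 1 to 3 passed as higher, and none as lower without CLP replicate 1, 2 or 4, CLP+DCA replicate 1, or sham replicate 1, 2 or 3. In CLP+DCA versus sham all 10 were above 0, with a median of 0.57, and the clock gene Per1 passed (1.09, edgeR adjusted p = 0.0357). The list had no call in that comparison without CLP replicate 1, 3 or 4, CLP+DCA replicate 1 or 2, or sham replicate 1, 3 or 4, and 2 without CLP+DCA replicate 4. Over all genes, between 1 and 11 were called there with single libraries left out. None passed in CLP+DCA versus CLP, in which Dusp1 was at 1.82 (edgeR adjusted p = 0.0718). Of the 10, 8 were above 0 and 6 had an unadjusted p under 0.05, against 10% of all genes. Fkbp5 was among these 6 but was lower in CLP+DCA, at -0.75 on the log2 scale. Without CLP+DCA 3, 4 passed as higher in that comparison, in which 616 genes were then called.

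Lipocalins other than the orosomucoids were mostly lower. Of 12 other lipocalin genes, 9 were tested, and in CLP versus sham 2 were higher and 7 lower, with a median of -0.65. Lcn2, which is also in class 1, rose, and Ptgds, a prostaglandin D synthase with 0.602 to 1.74 CPM in sham and at most 0.218 in CLP, fell by 3.16 on that scale (edgeR adjusted p = 0.0463). The orosomucoids carry sialylated glycans and are cleared from plasma by the asialoglycoprotein receptor. Of 8 genes of glycan synthesis and clearance, 5 were higher and 3 lower in CLP, and 1, Mgat2, an N-glycan branching enzyme, passed the test (0.61, edgeR adjusted p = 0.0463), with Fut8 next (0.52, adjusted p = 0.0796). When CLP+DCA 3 was left out and 3157 genes were called in CLP versus sham, 2 lipocalins passed as higher and 6 as lower. Of the glycan genes, 4 passed as higher and 1 as lower. Both lists had none without any 1 sham library, or without CLP replicate 2 or 4. The Ptgds call, the lower one among the lipocalins, was also lost without CLP replicate 1 or CLP+DCA replicate 1 or 2, as was that of the glycan list.

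**Figure D5:**
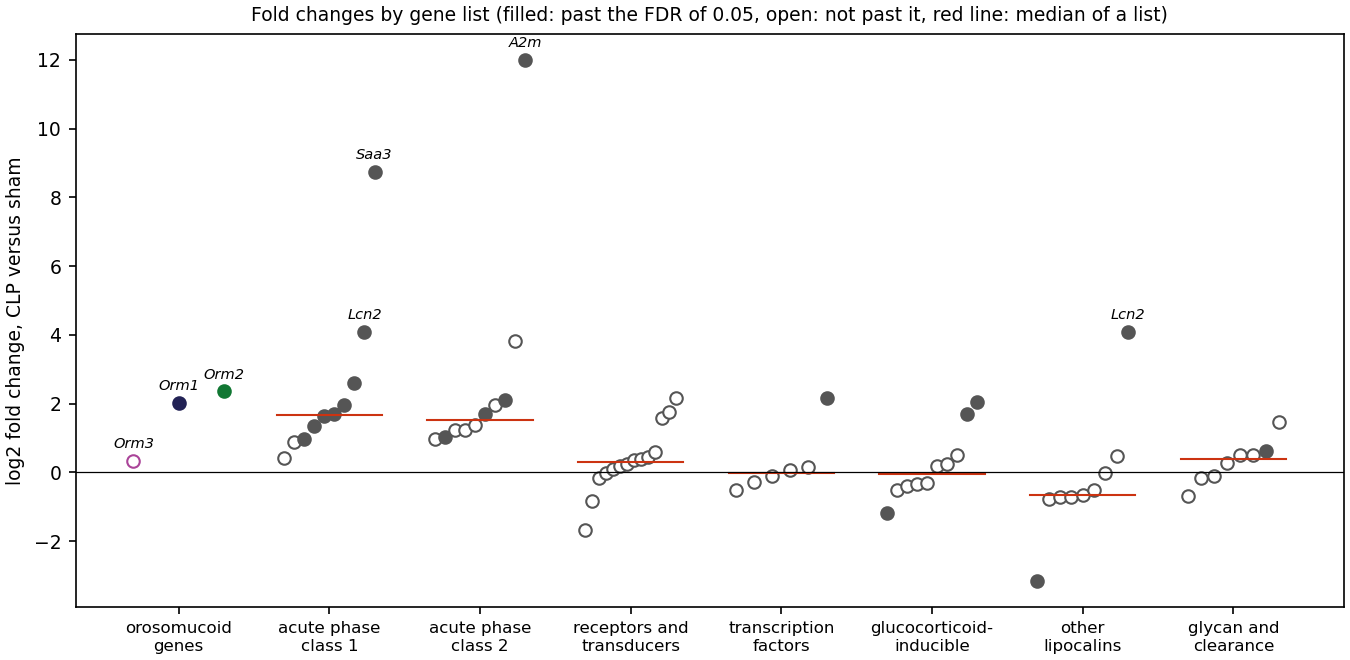
Log2 fold changes in CLP versus sham of the orosomucoid genes and of 7 gene lists, 1 point per gene, filled where the gene passed the FDR of 0.05, with the median of each list as a red line. Orm1 (2.02) and Orm2 (2.36) fall within the range of the acute phase lists, whose medians are 1.67 and 1.53, and Orm3 (0.34) lies below both medians.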

How the data were processed

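Poly(A)-enriched RNA of 12 whole livers (TruSeq RNA v2, 100-base paired ends) was aligned by the authors with STAR 2.5 to mm10, and reads were counted per gene with featureCounts of Subread 1.5.0-p1. The authors deposited raw counts per gene for each library. The annotation, strand setting and handling of reads with several matches are not given in the sources used here. The authors tested with DESeq2.

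From these counts, genes were kept by edgeR's filterByExpr (minimum count 10), which left 13190 of 25611, scaled by TMM and tested with edgeR 4.0.16 (R 4.3.3) by the robust quasi-likelihood test on all 12 libraries, with Benjamini-Hochberg adjustment over all genes tested. Alternatives were DESeq2 1.42.0, RLE or total-count scaling, library sizes without acute phase genes, no filter, fits of 8 libraries, a replicate block and each library left out. The scripts were tested on simulated data. Log2 CPM used a prior count of 2. The edgeR intervals and p-values rest on the spread between mice, 4 per group, estimated over all 12 libraries and moderated across genes. Depth was 24436513 to 44266819 reads per library and Orm3 had 174 to 930 reads. No libraries were duplicates.

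Groups came from the sample labels. In each list the 2 genes of smallest p in CLP versus sham and every gene called in any comparison were named, at most 6, along with the 5 genes most correlated with each member and all genes within 200 kb. Not every gene named by this rule is reported here. The members and lists were chosen with earlier results of these data known. The counts of list members with libraries left out were added after seeing the data. Ratios between members used 1 added read.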

Additional observations from a re-analysis of the deposited data

Results flagged for a closer look

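In CLP+DCA, the log2 ratio of Orm1 to Orm3 reads was 10.66 in replicate 3, far from the other 3 mice of the group, which had 196 to 228 reads of Orm1 per Orm3 read against 1623 in that library. It was the 1 sample of 30 groups of values checked that stood this far from the rest of its group, and chance alone marks about 5% of groups. The same library held 277 reads of Orm3 and had the most reads of Orm1, though not the highest Orm1 CPM.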

How the results depend on the processing

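The directions of Orm1 and Orm2 in all 3 comparisons held under every alternative run. Replicate numbers gave no clear sign of pairing the mice, though a weak shared effect could go unseen in this check. Of 12 same-numbered pairs, 1 had a correlation over 0.1 (range -0.46 to 0.55), and 3 of 12 libraries correlated best with their own number. With the replicate number as a block, log2 fold changes in CLP versus sham were 2.03 for Orm1 (edgeR adjusted p = 0.0645) and 2.35 for Orm2 (adjusted p = 0.0529), and 46 genes were called. CLP+DCA then had 0 calls against sham (0 also by edgeR on 8 libraries) and 4 against CLP.

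Genes called in CLP versus sham, 367 in the reported fit, numbered 209 with total counts alone, 122 without a filter, 1906 (12 libraries) and 3422 (8 libraries) by DESeq2 and 2387 by edgeR on 8 libraries. In CLP+DCA versus sham, 5 became 3 with total counts alone, 243 and 169 by DESeq2 and 0 by edgeR on 8 libraries. DESeq2 gave log2 fold changes there of 1.37 (12 libraries) and 1.38 (8 libraries) for Orm1 and 1.49 in both for Orm2, past the threshold. In CLP+DCA versus CLP, 1 became 137 and 80 by DESeq2 and 0 by edgeR on 8 libraries. The cause of these differences was not tested.

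With single libraries left out, log2 fold changes in CLP versus sham ranged from 1.85 to 2.19 for Orm1 and from 2.19 to 2.57 for Orm2, and genes called from 10 (without sham replicate 3) to 3157 (without CLP+DCA replicate 3), from 1 to 11 in CLP+DCA versus sham and from 0 to 616 in CLP+DCA versus CLP. Signs turned for Orm3 in CLP+DCA versus CLP (-0.10 without CLP+DCA replicate 2, up to 0.47). In CLP+DCA versus sham they turned for the log2 ratios of Orm1 to Orm2 (0.063 without CLP+DCA replicate 2, range down to -0.23) and of Orm1 to Orm3 (-0.022 without CLP+DCA replicate 3, range up to 1.11). None of these 3 had passed a test.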

Other observations

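Other cell types of the liver were read through markers. The summed level of 8 Kupffer cell and macrophage markers was 166 to 280 CPM in sham, 259 to 337 in CLP and 219 to 427 in CLP+DCA, and none of the 8 passed the edgeR test in any comparison, with 1 at an unadjusted p under 0.05 in CLP versus sham. Marco, a scavenger receptor of macrophages, had the smallest p of this list (log2 fold change 2.56 in CLP versus sham, edgeR adjusted p = 0.0554). Of 5 endothelial markers, summing to 81.8 to 104 CPM in sham and 96.9 to 120.0 in CLP, none passed the edgeR test and 2 had an unadjusted p under 0.05. The 6 lymphocyte markers summed to 1.51 to 3.32 CPM in sham and 0.359 to 1.18 in CLP. Of these, 2 were tested, and none passed the edgeR FDR in CLP versus sham, with 2 at an unadjusted p under 0.05. In that comparison, 28.6% of all genes had an unadjusted p under 0.05. Without CLP+DCA replicate 3, 1 macrophage, 2 endothelial and 3 lymphocyte markers passed in CLP versus sham. The low-count filter of that fit kept 4 lymphocyte markers in place of 2. It called 3157 genes in all, and whether these marker counts exceed its share of all genes was not tested.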
